A study of Homo sapiens with 6 samples.

Results

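The genes described here encode the nuclear-encoded subunits of the mitochondrial respiratory chain and ATP synthase. They were the protein-coding genes whose GENCODE release 44 symbol begins with NDUFA, NDUFB, NDUFC, NDUFS, NDUFV, SDHA to SDHD, UQCR, COX4 to COX8 or ATP5, without the assembly factor families NDUFAF and SDHAF. The rule found 90 genes among the 63677 genes of the count table: 40 of complex I, 4 of complex II, 9 of complex III, 17 of complex IV and 20 of complex V. RNA was sequenced from UWB1.289, a human ovarian carcinoma cell line that lacks functional BRCA1, after 24 h with Olaparib, an inhibitor of poly(ADP-ribose) polymerases, or with its solvent DMSO, with 3 samples in each group. The labels give the genotype of both groups as WT, and the line comes from a single tumour. The sample labels and the paper give the Olaparib dose as 4 µM, whereas the design text gives 10 µM. The comparison asks how transcripts responded to PARP inhibition in cells with defective DNA repair, and here whether those of the respiratory chain did.

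Complex I (NADH dehydrogenase) and complex II (succinate dehydrogenase) pass electrons to ubiquinone, complex III passes them on to cytochrome c, and complex IV (cytochrome c oxidase) reduces oxygen. Complexes I, III and IV pump protons, and complex V (ATP synthase) uses the gradient to make ATP. Complexes I, III, IV and V mix subunits from nuclear genes with subunits made in the mitochondrion, whereas complex II is wholly nuclear-encoded. The transcription factors NRF1 and GABP (an ETS family factor), YY1 and the ERR family are known to act at many of these promoters.

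Each library held between 35360458 and 39640775 counts, and the 90 genes took between 0.9323% and 0.976% of them. The 6 epithelial marker genes, among them KRT8, KRT18 and EPCAM, held between 317156 and 361763 counts per library in sum. The 8 markers of immune, endothelial and fibroblast cells held between 383 and 484 counts in sum, with PECAM1 and LUM at 0 and COL1A1 the highest at 237 to 328. Within each group the libraries differed by more than sampling noise, and replicate 1 of each group differed most from the other 2.

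Promoter sequences of 4 members are given first, because the search for factor motifs described below rests on such windows. They are the 250 bases upstream of the RefSeq start on GRCh38.p14, in the direction of transcription. SDHB and COX5B hold both an NRF1 and an ETS motif, COX8A, the widely expressed form of a complex IV subunit, holds an ETS motif, and COX8C, its counterpart, holds none of the motifs searched. The windows lie at chr1:17054033-17054282 on the minus strand for SDHB, chr2:97645812-97646061 on the plus strand for COX5B, chr11:63974370-63974619 on the plus strand for COX8A and chr14:93346932-93347181 on the plus strand for COX8C. Each window ends at the base before the annotated start of its gene, and exons of other genes in it were not looked for. Capitals mark matches to the motifs, and the last match of COX5B runs over the start and is shown only in part.
SDHB: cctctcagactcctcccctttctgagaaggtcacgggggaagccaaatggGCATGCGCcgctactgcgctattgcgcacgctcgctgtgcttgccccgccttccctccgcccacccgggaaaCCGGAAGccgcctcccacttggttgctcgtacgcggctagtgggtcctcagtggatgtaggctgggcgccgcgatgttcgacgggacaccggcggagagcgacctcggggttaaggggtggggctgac
COX5B: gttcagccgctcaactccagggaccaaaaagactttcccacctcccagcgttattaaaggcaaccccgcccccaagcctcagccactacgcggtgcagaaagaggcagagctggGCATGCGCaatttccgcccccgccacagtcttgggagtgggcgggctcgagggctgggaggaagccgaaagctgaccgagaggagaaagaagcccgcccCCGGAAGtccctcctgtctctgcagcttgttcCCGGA
COX8A: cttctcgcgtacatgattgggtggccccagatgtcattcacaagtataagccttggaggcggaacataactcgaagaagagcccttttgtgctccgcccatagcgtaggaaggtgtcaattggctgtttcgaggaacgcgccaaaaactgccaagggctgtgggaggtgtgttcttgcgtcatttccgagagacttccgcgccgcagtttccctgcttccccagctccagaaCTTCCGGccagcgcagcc
COX8C: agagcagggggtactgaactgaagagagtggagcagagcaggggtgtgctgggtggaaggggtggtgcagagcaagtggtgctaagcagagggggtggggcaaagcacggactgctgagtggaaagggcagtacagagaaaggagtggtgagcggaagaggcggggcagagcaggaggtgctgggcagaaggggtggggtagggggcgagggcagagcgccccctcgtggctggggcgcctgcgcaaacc

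The subunit transcripts differed little between Olaparib and DMSO, and the most positive estimates among members that averaged 1000 counts or more were those of NDUFS7 and ATP5F1D. The values are averages over many cells, so a change in every cell and a change in part of the cells cannot be told apart. Of the 90 genes, 84 had more than 10 counts in total and were tested, and 0 of them passed an adjusted p value of 0.05 (edgeR quasi-likelihood test, Benjamini-Hochberg adjustment over 21729 genes), against 3.36% of all genes tested. At an unadjusted p value under 0.05, 7 were higher after Olaparib and 2 were lower, where 7.83% of all genes were higher and 6.97% lower at the same limit. DESeq2 and limma voom also called 0 members, where 525 and 671 of all genes passed. At the unadjusted limit 6 members were higher and 1 lower by DESeq2, and 8 higher and 2 lower by limma voom. The shares of all genes at that limit are not given for these fits. For the 84 genes the log2 fold change had a median of 0.016 (quartiles -0.023 and 0.05), with 53 above 0 and 31 below 0. The median over all genes tested was -0.0042, and it was 0.0094 over the 6787 genes that averaged 1000 counts or more. Above 0 were 48.6% of all genes tested and 55.8% of those 6787 genes.

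The range of changes that the data allow was narrow for most members. For 77 of the 84, the 95% interval of the log2 fold change lay within 1.2-fold in either direction, a limit of 0.263 on the log2 scale. The 70 members that averaged 1000 counts or more were all within it, with log2 fold changes from -0.077 to 0.15 and no bound beyond 0.26. Of all 6787 genes at that depth, 97.6% were within it too. The 7 members outside it, NDUFA13, NDUFA4L2, NDUFA7, NDUFV2, COX6B2, COX7A1 and ATP5MF-PTCD1, had a mean count of at most 73.5, and a change of 1.2-fold was not detectable in them at these counts.

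**Figure D1:**
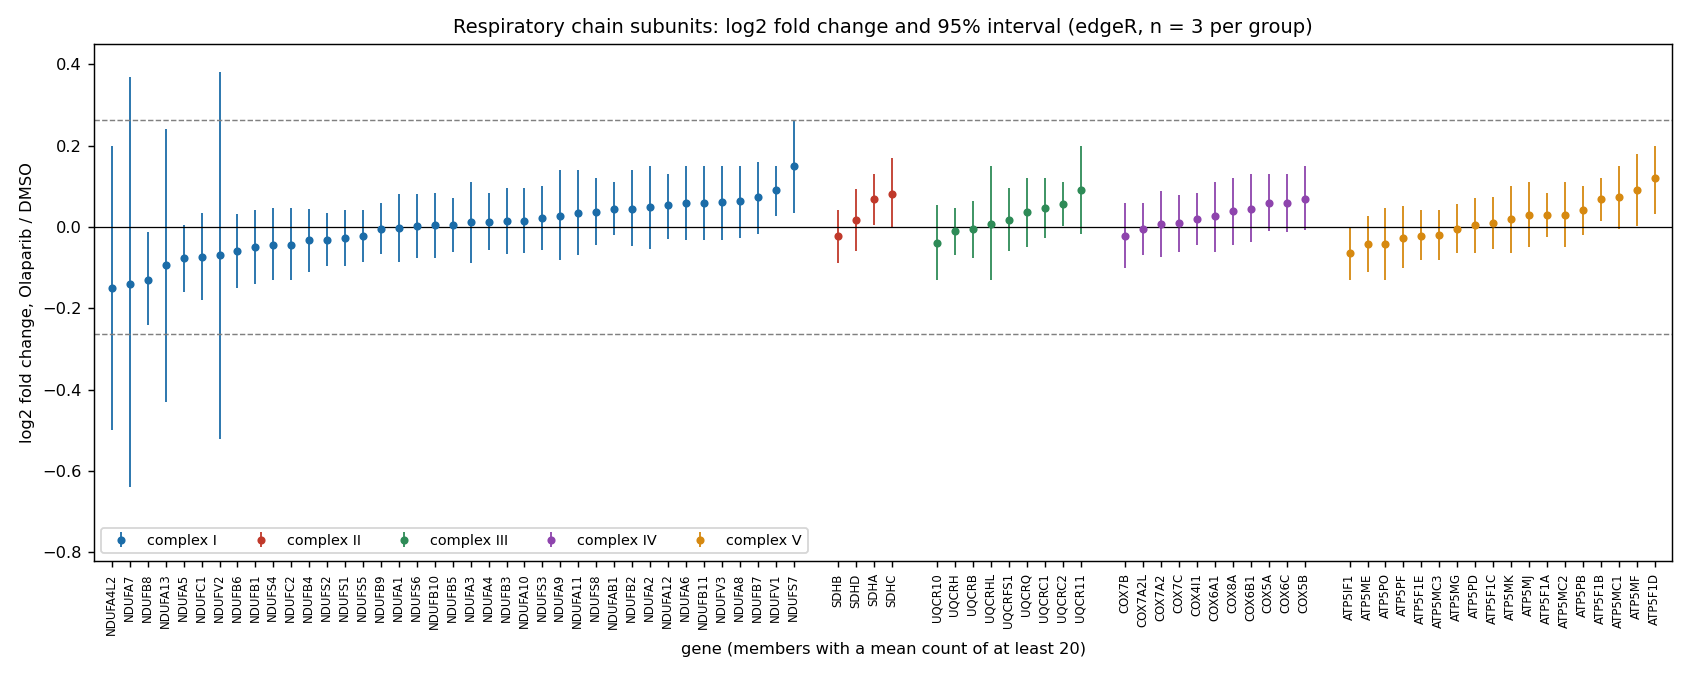
Log2 fold change of each tested subunit gene (points, Olaparib over DMSO, 3 samples per group) with its 95% interval (lines), by complex; dashed lines mark 1.2-fold in either direction, and COX6B2, COX7A1 and ATP5MF-PTCD1 are left out because their mean count was under 20. Most intervals sit between the dashed lines and cross 0, and the intervals that reach past them belong to NDUFA4L2, NDUFA7, NDUFA13 and NDUFV2.

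In complex I, 22 of the 39 tested genes were above 0 and 17 below, with a median of 0.0054. The 7 core subunits made in the nucleus had a median of 0.022 and the other 32 tested genes a median of 0.0048. NDUFV1, which binds the flavin at the site of NADH oxidation, had the smallest p value of any member and is named for that reason, after its values were seen. Its normalised read counts were 7456, 7857 and 7596 in the Olaparib samples and 7022, 7064 and 7426 in the DMSO samples. The groups did not overlap, yet the lowest Olaparib sample lay just above the highest DMSO sample. The log2 fold change was 0.091 (95% interval 0.027 to 0.15), with an adjusted p value of 0.12 from edgeR and a range of 0.0127 to 0.357 over the alternatives. NDUFS7, an iron-sulfur core subunit, had the most positive estimate among complex I members that averaged 1000 counts or more, with 1114, 1391 and 1222 in Olaparib and 1073, 1117 and 1172 in DMSO. The groups overlapped, since Olaparib replicate 1 lay below 2 of the DMSO samples, and the log2 fold change of 0.15 (95% interval 0.035 to 0.26) had an adjusted p value of 0.163 from edgeR. Exons of other genes on the opposite strand covered 37.3% of the NDUFS7 canonical transcript. The strand setting of the counting is not given in the sources used here, and its part was not tested. Without Olaparib replicate 1, 3 of the 84 members passed the threshold, where 870 of all genes passed in the same fit. They were NDUFS7 at an adjusted p value of 0.012, ATP5F1D at 0.043 and NDUFV1 at 0.046 (edgeR). Without Olaparib replicate 2, which held the most NDUFS7, its log2 fold change was 0.06 with an adjusted p value of 0.671 (edgeR).

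NDUFA4L2, a paralogue of NDUFA4 that rises in hypoxia, had the most negative estimate of complex I at -0.15 (95% interval -0.50 to 0.20), from 44.5, 51.3 and 68.6 normalised read counts in Olaparib and 53.3, 71.6 and 57.8 in DMSO. It ranged from -0.35 without Olaparib replicate 3 to -0.02 without DMSO replicate 2. NDUFB8, an accessory subunit of the membrane arm named after its values were seen, was 1 of the 2 members lower at an unadjusted p value under 0.05. It held 495, 521 and 559.7 in Olaparib against 591, 544 and 585 in DMSO, and Olaparib replicate 3 exceeded DMSO replicate 2 (log2 fold change -0.13, adjusted p value 0.273, edgeR, and -0.082 without Olaparib replicate 1).

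Complex II had a median of 0.043 over its 4 genes, with 3 above 0. SDHC, a membrane anchor, had the largest estimate at 0.082 (95% interval -0.0034 to 0.17). Its normalised read counts were 1865, 1937 and 1913 in Olaparib and 1726, 1789.6 and 1879 in DMSO. SDHB, the iron-sulfur subunit, was the only gene of the complex below 0, with 5061, 5121 and 5221 against 5183, 5135 and 5324. Its estimate of -0.022 had a 95% interval of -0.088 to 0.043, and the groups of both genes overlapped. SDHA, the flavoprotein that oxidises succinate, held 5553, 5702 and 5565 in Olaparib and 5245, 5386 and 5403 in DMSO without overlap (log2 fold change 0.069, adjusted p value 0.286, edgeR).

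In complex III the median was 0.018, with 6 of 9 genes above 0. UQCR11, a small subunit, had the largest estimate at 0.092 (95% interval -0.016 to 0.20). It held 1025, 1152 and 1125 in Olaparib and 1129, 1002 and 969.8 in DMSO, so that DMSO replicate 1 exceeded 2 of the Olaparib samples. The estimate was 0.16 without that library and 0.046 without DMSO replicate 3. UQCR10, another small subunit, had the most negative estimate at -0.04 (95% interval -0.13 to 0.055), with 1459, 1489 and 1657 against 1533, 1625 and 1576. It was -0.0024 without Olaparib replicate 1 and -0.10 without Olaparib replicate 3. UQCRC2, a core protein of the matrix side, was higher without overlap at 15653, 15374 and 15506 against 14615, 14915 and 15199. Its log2 fold change of 0.057 did not pass (adjusted p value 0.316, edgeR).

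Complex IV had a median of 0.039, with 11 of 13 tested genes above 0, and none of them separated the groups. With NDUFA4 and NDUFA4L2 counted in complex IV, where the NDUFA4 protein is now placed, the median was 0.026. COX5B, a matrix-side subunit, had the largest estimate of those that averaged 20 counts or more, at 0.069 (95% interval -0.0077 to 0.15). The adjusted p value of COX5B was 0.408 from edgeR, with a range of 0.0494 to 0.804 over the alternatives. COX5B held 4685, 5081 and 5203 in Olaparib and 4796, 4531 and 4939 in DMSO. The estimate was 0.036 without Olaparib replicate 3 or DMSO replicate 2 and 0.11 without Olaparib replicate 1. COX7B, a small membrane subunit, had the most negative at -0.023 (95% interval -0.10 to 0.058), with 3065, 3085 and 3372 against 3157, 3216 and 3304.

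In complex V, 11 of 19 tested genes were above 0 and the median was 0.0097. ATP5F1D, the delta subunit of the central stalk, held 2483, 2707 and 2571 in Olaparib and 2429.9, 2349 and 2385 in DMSO. No Olaparib sample reached down to the DMSO samples, and the log2 fold change was 0.12 (95% interval 0.033 to 0.20, adjusted p value 0.125, edgeR, 0.0263 to 0.412 over the alternatives). ATP5F1B, the catalytic beta subunit, was the most counted member with 39818, 40243 and 40444 against 37328, 38439 and 39105. The groups did not overlap, and the log2 fold change of 0.069 (95% interval 0.015 to 0.12) had an adjusted p value of 0.171 from edgeR. ATP5IF1, the inhibitor that stops the enzyme from running backwards, was lower in all 3 Olaparib samples at 6167, 6217 and 6395 against 6538, 6491 and 6602. Its log2 fold change of -0.064 (95% interval -0.13 to -0.0018) did not pass either, with an adjusted p value of 0.315 from edgeR, and was -0.035 with a transcript length offset.

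Across the chain, 13 of the 84 genes had groups that did not overlap, 10 higher and 3 lower, against 19.3% of all genes tested (10% higher and 9.29% lower). The 3 lower genes were ATP5IF1 and the complex I accessory subunits NDUFA5 and NDUFB4, named after their values were seen. NDUFA5 held 1945, 1890.4 and 1909 in Olaparib and 2016, 2001 and 2041 in DMSO (log2 fold change -0.077, adjusted p value 0.376, edgeR). NDUFB4 held 3113, 3122 and 3083 against 3155, 3138 and 3226, a log2 fold change of -0.031. Of the 10 higher genes, 5 were of complex V, namely the alpha, beta and delta subunits ATP5F1A, ATP5F1B and ATP5F1D, the ring subunit gene ATP5MC1 and the small membrane subunit ATP5MJ. The others were NDUFV1, NDUFA6, NDUFAB1 (the mitochondrial acyl carrier protein), SDHA and UQCRC2. ATP5F1A had 16296, 16203 and 16174 against 15641, 15923 and 16120.5, and its log2 fold change was 0.03. Summed over the 90 genes, the normalised read count was 358908 ± 7453 in Olaparib and 353468 ± 7242 in DMSO (SD, n = 3), a ratio of 1.02. The ratio was 1.01 for complex I and 1.02 for each of complexes II to V.

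Within each group the members shared a shift from library to library. The 70 members of high depth deviated from their 6-library mean by a median of -0.031, 0.0095 and 0.042 (log2) in Olaparib replicates 1, 2 and 3 and by -0.03, -0.014 and 0.026 in the DMSO replicates. Replicate 1 was the lowest and replicate 3 the highest library of each group. The median over all 6787 genes at that depth stayed between -0.013 and 0.0079. The 398 of them with a canonical transcript of at most 1000 bases include the members of that length, so the sets overlap. Their medians moved in a similar way, with -0.036, 0.025 and 0.036 in Olaparib and -0.029, -0.021 and 0.02 in DMSO. With canonical transcript length as an offset in the fit, 0 members passed, where 844 of all genes did, and the member median was 0.031. At the unadjusted limit 15 members were higher and 1 was lower. The share of all genes at that limit is not given for this fit, so these counts cannot be set against it.

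**Figure D2:**
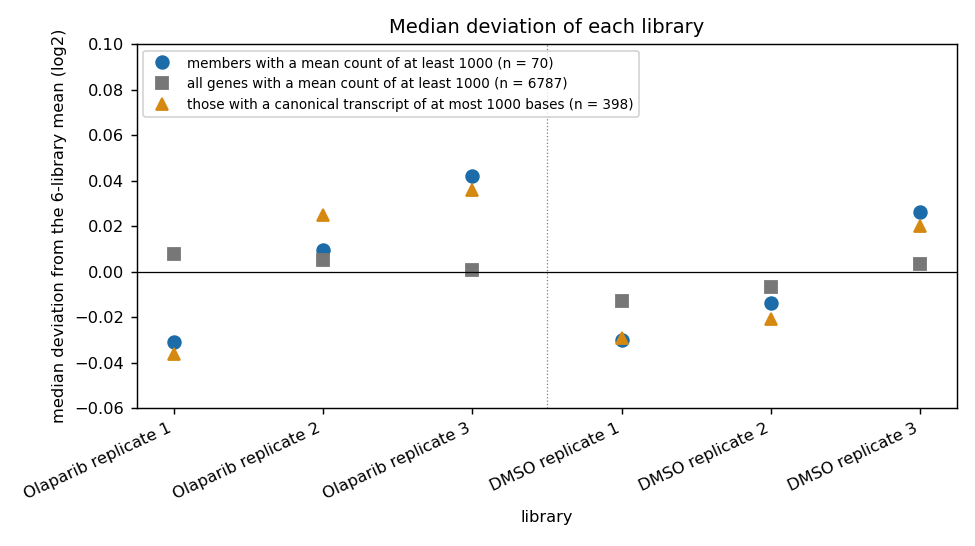
Median deviation (log2, vertical axis) of each of the 6 libraries (horizontal axis) from the mean of the 6, for the 70 members, for all 6787 genes of that depth and for the 398 of these with short canonical transcripts. The 398 include members with short transcripts. Members and short transcripts are low in replicate 1 and high in replicate 3 of both groups, whereas the median of all genes stays between -0.013 and 0.0079.

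Levels differed far more among the members than between conditions. Levels are given as normalised read counts per kilobase of the canonical transcript in DMSO, for the 77 tested members that share under 50% of that transcript with another gene on the same strand. Their median was 3616. ATP5F1B was highest at 21769 ± 510.3 (SD, n = 3), followed by UQCRH, the hinge subunit of complex III, at 18300.2 ± 320.2. The highest of complex IV was COX4I1, the ubiquitous form of subunit 4, at 14953 ± 535, and that of complex I was NDUFS5, an accessory subunit, at 13580.4 ± 189. These 4 levels were separated by more than their SDs. In complex II, SDHB was highest at 5137 ± 96.6 and SDHC lowest at 1375 ± 58.6. UQCR11 was the lowest of complex III at 796 ± 64.9, which did not differ from UQCRB at 811 ± 34.6 beyond their spread.

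The order depended on the length used. The medians per kilobase of canonical transcript were 2231, 2289.7, 1266, 6206 and 5946 for complexes I to V, and per kilobase of coding sequence 4716, 4877, 8096, 14408 and 14526. Complexes IV and V were above the other complexes with either length, and also per kilobase of all exonic bases (2055 and 1940, against 716, 1095 and 987 for complexes I to III). Per kilobase of coding sequence the highest member was ATP5F1E, the epsilon subunit, at 64430.3, whose canonical transcript is 3610 bases long and which held 2731 per kilobase of it. With that length SDHD was highest (7284) and SDHA lowest (2683) of complex II. COX7C was highest of complex IV (27534) and UQCRHL lowest of complex III (1219). Per kilobase of all exonic bases COX8A was highest of complex IV (7767). UQCRH and NDUFS5 were highest of their complexes with each length.

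**Figure D3:**
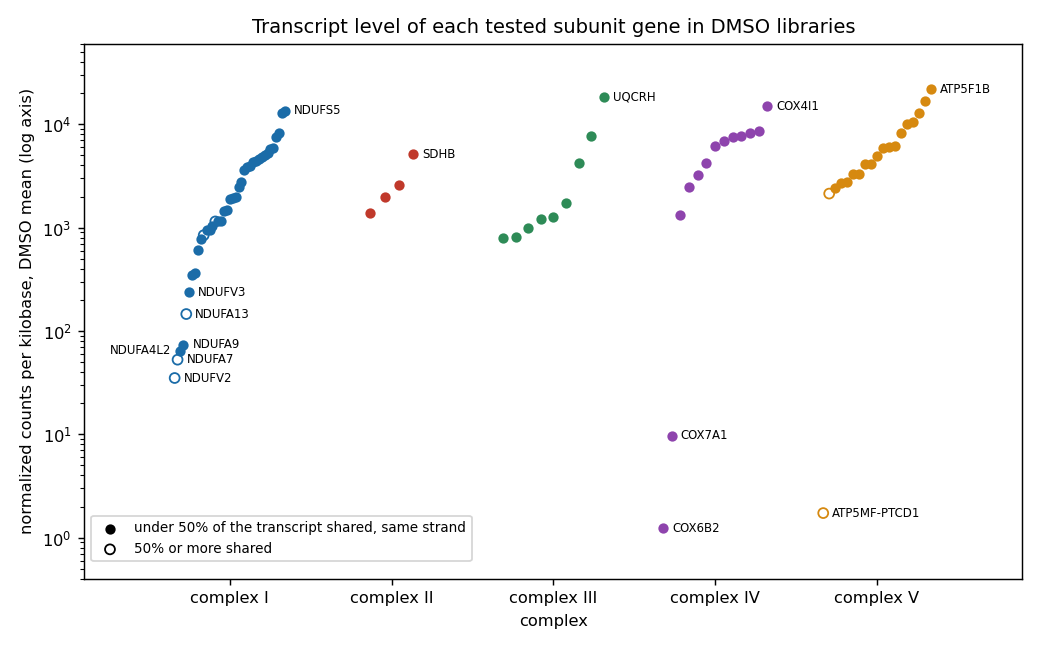
Level of each of the 84 tested subunit genes (points) as the mean normalised read count per kilobase of canonical transcript in the 3 DMSO samples (log axis), ordered within each complex; open circles mark genes with 50% or more of the transcript in same-strand exons of another listed gene. NDUFV2, NDUFA7 and NDUFA13 are low among complex I genes and are open circles. NDUFA4L2 (64.6) and NDUFA9 (73.6) are also low there and are filled. COX7A1, COX6B2 and ATP5MF-PTCD1 lie below 10.

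Some members have exons that overlap another listed gene. In 7 tested members, 50% or more of the canonical transcript lay in same-strand exons of another gene of the table, and their median level was 146 per kilobase, against 4096 in the 67 members with no such overlap. Low levels were not limited to these 7, since NDUFA4L2 and NDUFA9, which shared 0% and 11.7%, held 64.6 and 73.6 per kilobase. NDUFV2, a core iron-sulfur subunit of complex I at chr18:9102630-9134345, shared 90% of its transcript with ENSG00000265257 and held 24.3, 35.9 and 25.8 normalised read counts in Olaparib and 32.4, 27.5 and 30.3 in DMSO. The 6 other core subunits of complex I held at least 1073 in every library. NDUFA13, an accessory subunit at chr19:19515736-19529054, shared 83.9% and held 86, 68.7 and 58.6 against 71.1, 96.1 and 60.7. NDUFA7, also accessory and at chr19:8308768-8321375, shared 77.9% and held 32.4, 31.8 and 18.9 against 37.6, 35.3 and 19. The overlapping genes of NDUFV2 and NDUFA13 had 0 counts in all libraries and that of NDUFA7 had 3 in total. NDUFA11, NDUFB8 and ATP5PO shared 68.2%, 72.0% and 63.8% and held between 495 and 1644. How the counting treated reads that fall on more than 1 gene is not given in the sources used here, and its part in these low levels was not tested. The readthrough genes ATP5MF-PTCD1 and NDUFC2-KCTD14, whose canonical transcripts lie wholly in exons of other genes, held 22 and 0 counts.

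Several subunits have alternative forms encoded by separate genes, and in UWB1.289 cells nearly all counts of complex IV came from the widely expressed form. COX4I2, the form of subunit 4 known from lung and hypoxic cells, had 2 counts over the 6 libraries, against 68978 for COX4I1. COX6A2, the heart and muscle form of subunit 6A, and COX7B2, a testis form, had 0 counts in every library, so COX6A1 was at least 405-fold and COX7B at least 243-fold higher per kilobase (3 counts per library as the floor). COX6B2 and COX8C, both known from testis, had 14 and 9 counts, against 22671 for COX6B1 and 23348 for COX8A. COX7A1, the muscle form of subunit 7A, had 21 counts, and COX7A2 was 833-fold higher per kilobase (95% counting interval 545 to 1346). These counts lay between 0 and 6 in every library, so none of these 6 forms rose above 6 counts with Olaparib.

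**Figure D4:**
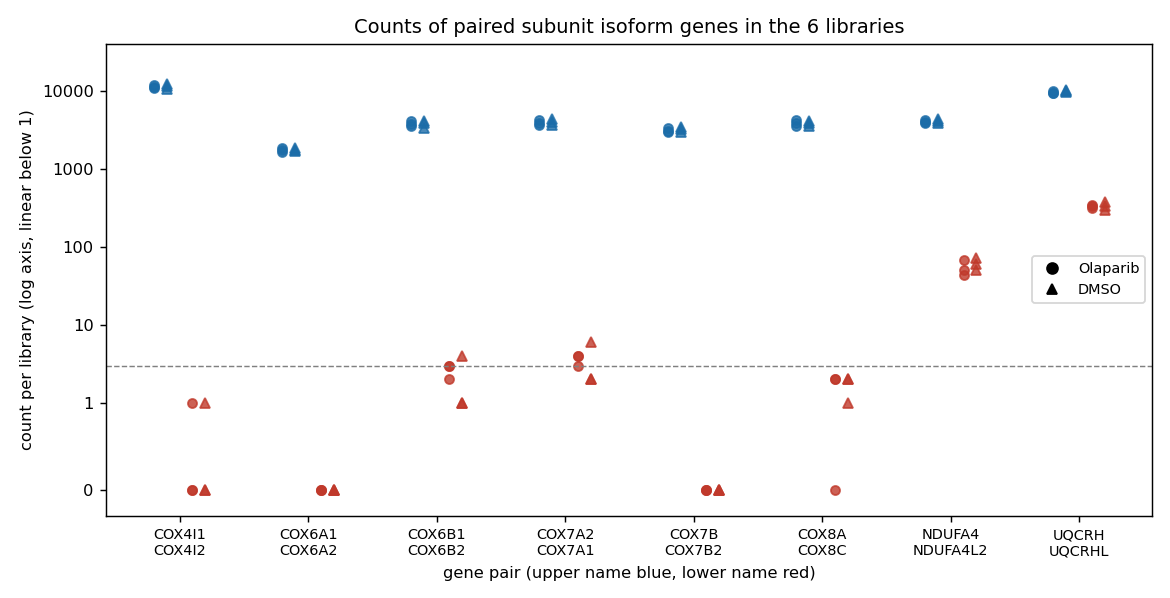
Counts per library (log axis, linear below 1) of the usual form (blue, upper name) and the alternative form (red, lower name) of 8 subunits, with circles for the 3 Olaparib and triangles for the 3 DMSO samples; the dashed line marks the floor of 3 counts. The alternative forms of complex IV lie at 0 to 6 counts, NDUFA4L2 at 44 to 73 and UQCRHL at 299 to 375.

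NDUFA4L2 was the exception with a clear count, 348 in total, yet NDUFA4 was 32.4-fold higher per kilobase (95% counting interval 29.2 to 36.1). UQCRHL, a retained copy nearly identical to UQCRH, had 2006 counts, with UQCRH 15.1-fold higher (14.4 to 15.7), and reads of this pair can be assigned to either, so both values are uncertain. NDUFA4 held 4025, 4016 and 4189.9 normalised read counts in Olaparib and 4015, 3989 and 4114 in DMSO (log2 fold change 0.013). ATP5MGL, a copy of the membrane subunit gene ATP5MG, had 4 counts.

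The ring subunit c of ATP synthase is encoded by ATP5MC1, ATP5MC2 and ATP5MC3, whose products differ only in the presequence that is cut off. ATP5MC3 gave 55.2% ± 1.49 of their summed counts in DMSO and 54% ± 0.256 in Olaparib (SD, n = 3). ATP5MC2 gave 24.2% ± 1 and 24.5% ± 0.379. ATP5MC1 gave 20%, 20.7% and 21% in the DMSO samples and 21.5%, 21.5% and 21.3% in the Olaparib samples, which did not overlap. The log2 fold changes were 0.073 for ATP5MC1, 0.03 for ATP5MC2 and -0.019 for ATP5MC3, and none passed the test. Per kilobase of canonical transcript ATP5MC2 gave the largest share in DMSO, 41.9%, followed by ATP5MC1 with 34.8%.

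Promoters of the members often held motifs of the factors known to act on them. RefSeq windows from 250 bases before to 50 bases after the start were matched for 71 of the 90 members, in 84 windows. Both strands were searched, and a match is a stretch of letters and not a bound site. The NRF1 motif GCGCATGC was in 17.9% of the members' windows and in 3.05% of all 35116 windows of this length. The ETS motif CCGGAAG was in 26.2% against 10.3%, and the YY1 motif AAGATGGCG in 11.9% against 1.75%. The ERR motif TCAAGGTCA was in 1.19% against 0.353%, in SDHD. At least 1 of the first 3 motifs was in the windows of 34 genes, 42.9% of windows against 14%. It was in 15 of 33 genes of complex I, 2 of 3 of complex II, 4 of 7 of complex III, 5 of 14 of complex IV and 8 of 14 of complex V. The members' windows were also richer in CpG, with a median of 22 sites against 14 in all windows, and the NRF1, ETS and YY1 motifs themselves contain CpG.

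At least 2 of the 3 motifs were in the windows of 8 genes, 10.7% of windows against 1.03%. Positions are those of the first base of a match relative to the start. In SDHB the NRF1 motif began at -200 and the ETS motif at -128, with a YY1 motif at 11, beyond the sequence printed above. In COX5B the NRF1 motif began at -136 and ETS motifs at -37 and -5. In COX8A an ETS motif began at -18. The 5 members in the RefSeq table with 25 or fewer counts in total, COX8C among them, had none of the 3 motifs. Of all windows 14% held at least 1 of them, so 5 windows are too few to tell a difference. The median of these 5 members was 10 CpG sites, with 31 in COX6B2. Of these, NDUFC2-KCTD14 has a window with 29 CpG sites that also covers the start of NDUFC2, which had 10040 counts. SDHB and COX5B, with the same pair of motifs, had log2 fold changes of -0.022 and 0.069, and neither passed the test.

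Of the other genes of the pathway, 2 assembly factors passed. Of 62 assembly factors tested, 1 was higher and 1 was lower, where 2.15% and 1.21% of all genes tested passed in these directions, and their median estimate was 0.00043. LRPPRC, which stabilises mitochondrial mRNAs and is needed for complex IV, held 20339, 18952 and 19076 normalised read counts in Olaparib and 17748, 17898 and 17614 in DMSO. All Olaparib samples were higher, with a log2 fold change of 0.13 (95% interval 0.074 to 0.19, adjusted p value 0.00483, edgeR, 8.3e-05 to 0.0398 over the alternatives). COX20, a chaperone of the mitochondrially made complex IV subunit COX2, held 1625, 1567 and 1625 against 1764, 1844 and 1858. All Olaparib samples were lower, with a log2 fold change of -0.18 (95% interval -0.27 to -0.097) and an adjusted p value of 0.00827 from edgeR (0.00269 to 0.0602 over the alternatives). Without DMSO replicate 2 and without DMSO replicate 3 the adjusted p value of COX20 was 0.0541 and 0.0602 (edgeR). Both changes were within 1.2-fold and thus below the fold criterion for differential expression.

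In the other lists 0 genes passed the threshold by edgeR, against 3.36% of all genes tested. At an unadjusted p value under 0.05, 7.83% of all genes tested were higher and 6.97% lower, beside which the small counts below are to be read. Of 9 carriers and subunits outside the symbol rule, 1 was higher at an unadjusted p value under 0.05, CYC1, cytochrome c1 of complex III, with a log2 fold change of 0.085 and an adjusted p value of 0.128 from edgeR. Without Olaparib replicate 1, CYC1 was at 0.12 with an adjusted p value of 0.00912 (edgeR, 0.00306 to 0.441 over the alternatives). The lowest of them was ETFDH, which passes electrons from fatty acid oxidation to ubiquinone, at -0.079. Of 13 regulators, 2 were higher and 1 was lower at the unadjusted limit. The 2 higher ones, named after their values were seen, were NRF1 at 0.10 and POLRMT, the mitochondrial RNA polymerase. POLRMT held 2046, 2238 and 2120.3 in Olaparib and 1919, 2020.0 and 1914 in DMSO without overlap, with a log2 fold change of 0.13 (95% interval 0.043 to 0.22) and the smallest adjusted p value of the regulators, 0.0928 (edgeR). The most positive estimate was that of PPARGC1A, a coactivator of mitochondrial genes with 116 counts in total, at 0.18 (95% interval -0.39 to 0.75, and -0.037 without Olaparib replicate 1), and the most negative that of GABPA, the DNA-binding subunit of GABP, at -0.10. Of 13 citric acid cycle genes, the lowest was OGDH, a subunit of the oxoglutarate dehydrogenase complex, at -0.033.

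Of the 13 subunits made in the mitochondrion, 1 was higher and 2 were lower at the unadjusted limit. Of all genes tested, 7.83% were higher and 6.97% lower at that limit. The median of the 13 was 0.016. The extremes were MT-ND3 at 0.081 and MT-ND6 at -0.13, both of complex I, with adjusted p values of 0.237 and 0.107 (edgeR). Over the alternatives these were 0.045 to 0.836 and 0.0403 to 0.405, and MT-ND3 was at 0.022 without DMSO replicate 1. MT-ND6, the only one of these genes on the other strand of the mitochondrial DNA, held 1425, 1474 and 1465 in Olaparib and 1536, 1675 and 1565 in DMSO without overlap.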

How the data were processed

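RNA from 3 Olaparib and 3 DMSO samples of UWB1.289 cells was sequenced after poly(A) selection per the labels. Per the paper's methods, the authors used Trimmomatic to trim adapters, STAR to map to GRCh38, Picard to mark duplicates and featureCounts to count reads per gene. The deposited values are raw read counts per gene. The strand setting, the treatment of reads on several genes and whether duplicates were removed are not given in the sources used here. The labels of 6 samples matched 6 sample names of the table.

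Genes with more than 10 counts in total were kept, normalised by TMM and tested with edgeR 4.0.16 (quasi-likelihood test, Benjamini-Hochberg adjustment) in R 4.3.3. A gene passed at an adjusted p value under 0.05. DESeq2 1.42.0, limma 3.58.1, other scalings, filters, a replicate block, a transcript length offset and leaving out each sample were alternatives. Normalised read counts are counts scaled to a common library size. Symbols, coordinates and canonical transcripts came from GENCODE 44, which held 81.9% of the identifiers, and same-strand overlap was computed from it among the genes of the table. Library totals were 35360458 to 39640775 counts, and intervals on counts and the floor of 3 counts per library cover counting error only. The 3 replicates per group are independent samples per the paper, and p values measure the spread between them.

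Members were named with values if they had the highest or lowest level or the largest rise or fall of their complex (for the latter, with a mean count of at least 20), were alternative forms of a subunit, or were not tested. SDHA, UQCRC2, ATP5F1A, NDUFA6, NDUFAB1 and ATP5MJ fall outside this rule. They were named after their values were seen, because their groups did not overlap. Members and lists were chosen with earlier results of these data known. The assembly factor SCO2 was not analysed here. A gene covered by the naming rule is not reported here.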

Additional observations from a re-analysis of the deposited data

How the results depend on the processing

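The medians over all members and by complex moved by less than the spread between libraries under every alternative run. The member median was 0.0069 to 0.031 with all samples and -0.0028 to 0.034 when 1 sample was left out, and that of complex I was -0.0036 to 0.015 and -0.0032 to 0.028. The count of members past the threshold was 0 in the other fits on all samples. It was also 0 among the 52 members left without those sharing over 10% of exonic bases (4 higher and 1 lower at the unadjusted limit). It was 0 without members sharing 50% or more of their transcript, a setting chosen after seeing the data. It was 2 with a replicate block (NDUFV1 and ATP5F1B, adjusted p values 0.0283 and 0.0277, edgeR) and 7 with a replicate block and a transcript length offset, where 1322 and 1550 of all genes passed instead of 730. It was between 0 and 3 when 1 sample was left out, with 3 without Olaparib replicate 1, where 870 of all genes passed. Over these fits between 398 and 870 of all genes passed. The replicate numbers do not pair the samples by any label, and the deviations of same-numbered samples correlated at -0.00879, 0.0743 and -0.00066 over 15525 genes. Not every sample correlated best with its own number. Of the values for named genes, 729 kept their direction and side of the threshold, 18 passed it, 2 no longer did (COX20) and 27 turned direction. With upper-quartile scaling COX7A2 was at -0.0015 and UQCRHL at -0.001. With the length offset NDUFS5 was at 0.0066 and UQCRH at 0.017, and with the block and offset at 0.0067 and 0.017. When 1 sample was left out the ranges of those that turned were ATP5MC2 -0.005 to 0.062, COX4I1 -0.0053 to 0.048, COX7A1 -0.12 to 0.86, COX7A2 -0.032 to 0.052, COX7B -0.071 to 0.0033, COX8A -0.0041 to 0.096, NDUFA4 -0.0087 to 0.025, NDUFA13 -0.25 to 0.11, NDUFA7 -0.40 to 0.076, NDUFS5 -0.041 to 0.0023, NDUFV2 -0.26 to 0.039, UQCRH -0.023 to 0.0061, UQCRHL -0.032 to 0.057 and PPARGC1A -0.037 to 0.38. SDHB (-0.036 to -0.0087), SDHC (0.056 to 0.11), ATP5MC3 (-0.04 to -0.0029) and OGDH (-0.05 to -0.013) kept their direction. All are log2 fold changes, and the cause of these changes was not tested. For the 7 members with few counts a change of 1.2-fold could not be detected.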
